A study of Mus musculus with 6 samples.

Results

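The 8 genes described here are Mga, Max, E2f6, L3mbtl2, Pcgf6, Myc, Mnt and Mxi1, which encode the MGA and MAX transcription factors, partners of MGA in a Polycomb complex, and other proteins of the MYC network. A peak was counted for a gene when its midpoint lay within the gene's span in the RefSeq annotation of GRCm38, the assembly that is also called mm10. This gave 15 of the 3292 peaks in the deposited list and concerned 8 of 21900 protein-coding genes. The group was chosen by peak counts from this same list, in which Mga stood out, so that the number of its genes with a peak is a description and not a test.

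The peaks come from mouse embryonic stem cells of the Spy3-Ago2 genotype, in which the Argonaute protein AGO2, the partner of microRNAs (miRNAs) in silencing, bears the Spy3 tag. Cells were grown on gelatin in a serum medium to which the cytokine LIF, which holds back differentiation, was added, and no other genotype or treatment was included. The pull-down of AGO2 gave 2 miRNA and 2 target libraries, whole lysate gave 2 input libraries, and the names of the libraries start with E14, a mouse embryonic stem cell line. The labels do not say whether replicates were separate cultures or whether the tagged line was 1 clone. The peak list stands for the whole series and has no value per library, so none of the peaks has a replicate error, and the depth of the target and input libraries was not analysed here.

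MAX is the shared dimer partner of the MYC network, and its pairs with MYC, MNT, MXI1 or MGA bind the same short DNA element, the E-box. MYC with MAX activates genes, whereas MNT and MXI1 with MAX recruit corepressors. MGA and MAX are also DNA-binding subunits of the noncanonical Polycomb complex PRC1.6, as is E2F6, and the complex holds PCGF6 and L3MBTL2 as well. In embryonic stem cells this complex keeps genes of meiosis and the germline silent. AGO2 typically meets its targets in the 3′ part of messenger RNAs, through pairing to the miRNA seed.

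The places of the peaks were read against the start sites in the RefSeq promoter table (build GRCm38.p6). This was done because some of these sites lie far inside the spans of Mga and Mxi1. The first listed start of Mxi1 lay only 378 nt inside its span, the second 19285 nt and the third 19567 nt. The 60 bases that come just before the listed start are shown for the single listed start of Mga (chr2:119897168-119897227, plus strand) and for the second of the 3 listed starts of Mxi1 (chr19:53329353-53329412, plus strand). The last base of each line is the base before the start.

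Mga: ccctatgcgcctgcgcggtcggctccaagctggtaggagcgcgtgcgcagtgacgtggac

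Mxi1: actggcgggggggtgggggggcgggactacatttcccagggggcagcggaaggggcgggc

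These stretches mark where the transcripts in that table begin, and no peak of the 2 genes overlapped a promoter window reaching from 250 bases before to 50 bases after a listed start. For Mga the listed start lay 24725 nt inside the annotated span. Among 14731 protein-coding genes with 1 listed start, 1.7% had it more than 20000 nt inside the span.

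Mga carried 11 of the 15 peaks, Max carried 2, and Mnt and Mxi1 carried 1 each. No listed peak had its midpoint in E2f6, L3mbtl2, Pcgf6 or Myc. Thus 4 of the 8 genes had a peak, where 8.33% of all protein-coding genes had at least 1. At least 2 peaks were found for 2 of the 8 genes, against 2.9% of protein-coding genes. All 15 peaks lay within a single protein-coding gene and on the strand that the promoter table gives for it. Over 2464 peaks in 1 nuclear protein-coding gene of known strand, 99% were on the gene's strand.

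**Figure D1:**
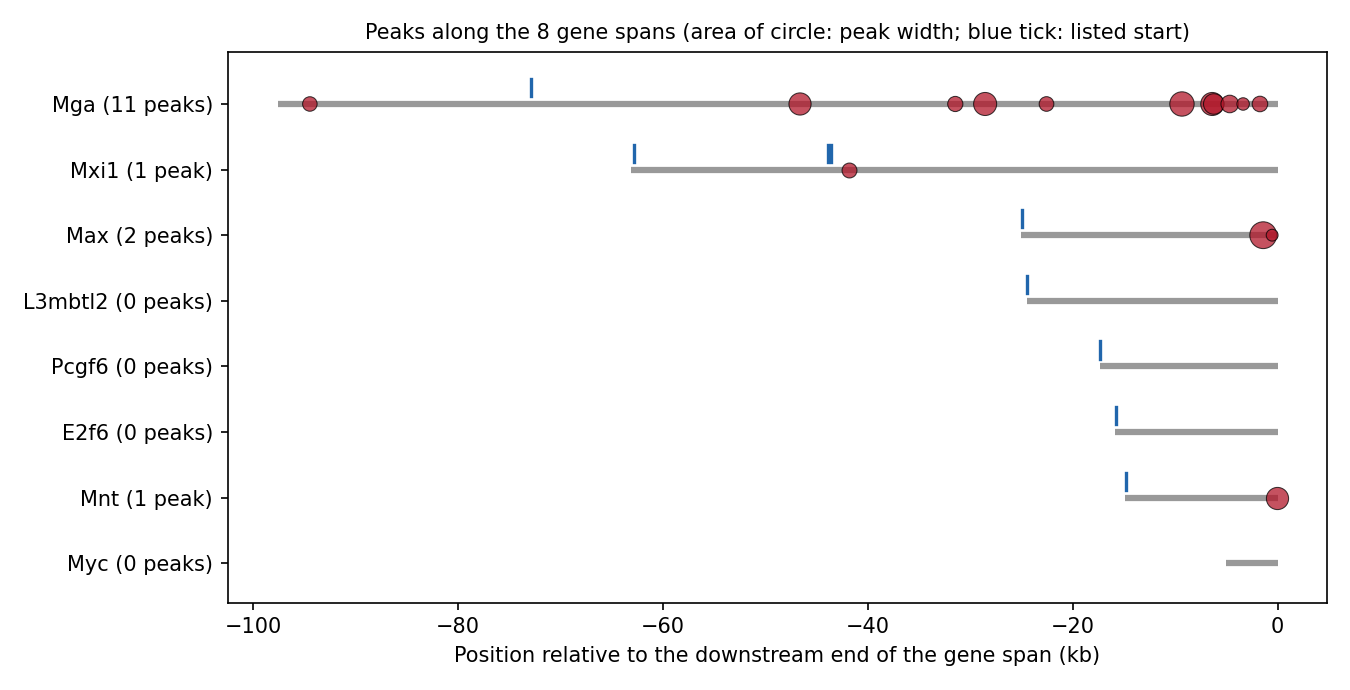
Peaks along the 8 gene spans, with the position relative to the downstream end of each span in kb on the x axis and 1 gene per row. Grey bars are the annotated spans, circles are peaks at their midpoints with an area proportional to peak width, and blue ticks are start sites in the RefSeq promoter table, which has none for Myc. Mga has 11 peaks, 6 of them within 10000 nt of its end; the peaks of Max and Mnt lie at the end and that of Mxi1 follows all 3 of its listed starts.

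Mga encodes a very large protein with a T-box and a basic helix-loop-helix zipper domain, the scaffold of PRC1.6. Its span covers 97627 nt of chromosome 2 (119872503 to 119970129, plus strand), so that there were 1.13 peaks per 10 kb. The peaks covered 1007 nt, or 1.03% of the span. Only 10 genes, 0.0457% of protein-coding genes, had 11 peaks or more, and 7 of these had more than Mga. Among the 2501 genes with a span at least as long as that of Mga, which is 1 of them, 13.3% had a peak and 0.12% had 11 or more. Neither the length nor the abundance of the transcripts entered these counts, and their part in them was not tested.

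The first peak of Mga stood apart from the others. It spanned 119875628 to 119875681, 54 nt wide, and its midpoint lay 3152 nt from the upstream end of the span. That is 21574 nt before the listed start of Mga, so it falls outside the transcript that begins there and inside the span only through other annotated models. The pseudogene Gm13998, the other gene annotated within the span of Mga, held none of the 11 peaks. The other 10 peaks all followed the listed start. The nearest of them, at 119923448 to 119923573, came 26283 nt after it and was 126 nt wide. Between the first and the second peak lay 47766 nt, the widest of the 10 gaps.

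Past the middle of the gene, 3 further peaks lay between 67.8% and 76.9% of the way along the span. They spanned 119938640 to 119938698 (59 nt), 119941516 to 119941651 (136 nt) and 119947549 to 119947603 (55 nt). Of these, the 136-nt peak followed the 59-nt peak after a gap of 2817 nt. The next gap measured 5897 nt, and another 13122 nt separated this group from the peaks near the end.

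The last 10000 nt of Mga held 6 peaks, which is also the number in the last 10% of the span. The most upstream of them was the widest of the gene, with 152 nt at 119960726 to 119960877. It was followed by a close pair at 119963693 to 119963828 (136 nt) and 119963853 to 119963960 (108 nt), only 24 nt apart. Gaps under 50 nt made up 15.5% of the 1351 gaps between neighbouring peaks of 1 gene.

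The last 3 peaks of Mga, at 119965425 to 119965503, 119966752 to 119966791 and 119968385 to 119968446, were 79, 40 and 62 nt wide. They followed at intervals of 1464, 1248 and 1593 nt. The peak nearest to the downstream end had its midpoint 1714 nt from it, and it was the only 1 of the 11 within 2000 nt. Of all peaks in 1 nuclear protein-coding gene, 35.9% lay within that distance.

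The median gap in Mga was 2816 nt, against 1473 nt over all 1351 gaps in 602 genes, whose quartiles were 201 and 7683 nt. Its gaps therefore ran from 24 to 47766 nt, with the median inside the quartiles of the whole list. The median position of the 11 peaks was 90.4% of the way along the span, and the mean was 76.2%. Measured from the listed start, the 10 peaks after it had a median position of 89.2% and a mean of 77.9%. Over all peaks in 1 nuclear protein-coding gene the median was 83.6% and the mean 72.5%.

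By number of peaks and mean position, Fgf4, Kdm5b and Prrc2a were the 3 genes most like Mga. Fgf4, a growth factor gene, also had 11 peaks with a mean position of 74.9%, but within 3860 nt, and 7 of them were within 2000 nt of its end. Kdm5b, a histone demethylase gene, had 11 peaks with a mean position of 68.4% over 72701 nt, and 1 of them near the end. Prrc2a had 10 peaks with a mean position of 68.1% over 16246 nt and 2 near the end. Nsd1, with 10 peaks at a mean position of 84.5% over 108544 nt, was nearly as close as Prrc2a. These likenesses rest on 2 measures of 1 list, neither of them span length, and were not tested.

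Max, the common partner of MYC, MNT, MXI1 and MGA, spans 25055 nt on the minus strand of chromosome 12 (76937269 to 76962323). Both of its peaks were at the downstream end. The upstream one, at 76938573 to 76938756, was 184 nt wide and centred 1396 nt from the end. The other, at 76937774 to 76937809, was 36 nt wide and centred 523 nt from it. Max thus held both the widest and the narrowest of the 15 peaks, separated by 763 nt. They lay 94.4% and 97.9% of the way along the span, and its remaining length held no listed peak.

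Mnt, a repressor that pairs with MAX in growing and resting cells, spans 14920 nt on the plus strand of chromosome 11 (74830806 to 74845725). Its single peak, at 74845595 to 74845720, was 126 nt wide. It was centred 68 nt from the downstream end, at 99.5% of the span, the most downstream of the 15. The peak ended within the span, before its last base.

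Mxi1, a MAX-binding antagonist of MYC, spans 63166 nt on the plus strand of chromosome 19 (53310128 to 53373293). It is the second longest of the 8 genes, and it had only 1 peak, 57 nt wide, at 53331384 to 53331440. The midpoint lay 33.7% of the way along the span and 41881 nt from the downstream end. Of the 3 listed starts of Mxi1, the first was 20906 nt before the peak, the second 1999 nt and the last 1717 nt. The only other gene annotated across part of Mxi1, the long noncoding RNA gene Gm30541, did not reach the peak's position. Whether the peak lay in an exon or an intron was not analysed here, for this or for any other peak.

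The PRC1.6 genes E2f6, L3mbtl2 and Pcgf6 had no listed peak. E2f6 encodes an E2F family member that represses without binding the retinoblastoma protein and spans 15844 nt of chromosome 12 (16810909 to 16826752). The nearest peak was 130495 nt above its span, in Rock2. L3mbtl2 encodes a protein with malignant brain tumour repeats and spans 24427 nt of chromosome 15 (81663889 to 81688315). The pseudogene Gm18284 and the protein-coding gene Chadl overlap this span. The nearest peak, in Ep300, was 33823 nt below it. Pcgf6, whose product is the RING finger protein that defines PRC1.6, spans 17323 nt of chromosome 19 (47033617 to 47050939). Here the nearest peak was 157855 nt away, in Cnnm2. None of the 3 gained a peak when the spans were extended by 1000 nt on both sides.

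Myc had no listed peak either. Its span is the shortest of the 8, 5021 nt of chromosome 15 (61985341 to 61990361). The nearest peaks were 2484392 nt below it, in Nsmce2, and 11138041 nt above it, in Ago2. The paralog Mycn, which can stand in for Myc in embryonic stem cells, has a span of 5744 nt on chromosome 12 and carried 4 peaks. All 4 were on the minus strand and within 2000 nt of the downstream end, centred 880, 554, 416 and 62 nt from it. They spanned 12936952 to 12936993, 12936606 to 12936687, 12936489 to 12936529 and 12936133 to 12936177. Both genes are short, and the list placed peaks at the end of one and none in the other.

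The genes without a peak had spans of 5021 to 24427 nt, and those with a peak had spans of 14920 to 97627 nt. Only Mnt of the genes with a peak was shorter than the longest gene without one. A cut at 25000 nt falls between the spans of L3mbtl2, without a peak, and Max, with peaks. Among all protein-coding genes, 13.1% of those of at least 25000 nt had a peak and 5.19% of the shorter ones. The cut was not among the planned comparisons. At this cut the longer genes more often had a peak, and the part of span length in the result was not tested.

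The widths of the 15 peaks ran from 36 to 184 nt with a median of 79 nt and quartiles of 56 and 131 nt. The median over all 3292 peaks was 58 nt. A width of at least 100 nt was reached by 7 of the 15, against 16.8% of all peaks, and these 7 were 5 peaks of Mga, 1 of Max and the peak of Mnt. The other 8 were between 36 and 79 nt wide. Without Mga, 2 of 4 peaks reached 100 nt and the median was 91.5 nt. In genes with at least 5 peaks of any width that lay in exactly 1 nuclear protein-coding gene, 22.4% of the 664 peaks reached 100 nt.

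Among the 14 genes with at least 10 peaks, between 0 and 5 peaks per gene were that wide, with a median of 3. Mga had 5 and shared this highest number with Jarid2 and Tet1, which encode a Polycomb partner and a DNA demethylation enzyme. In the whole list 4 genes had 5 or more wide peaks, and none had more than Mga. Of the 3 genes most like Mga by number and position, Kdm5b had 0, Fgf4 had 1 and Prrc2a had 3. No label or header says how the width of a listed peak was set.

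**Figure D2:**
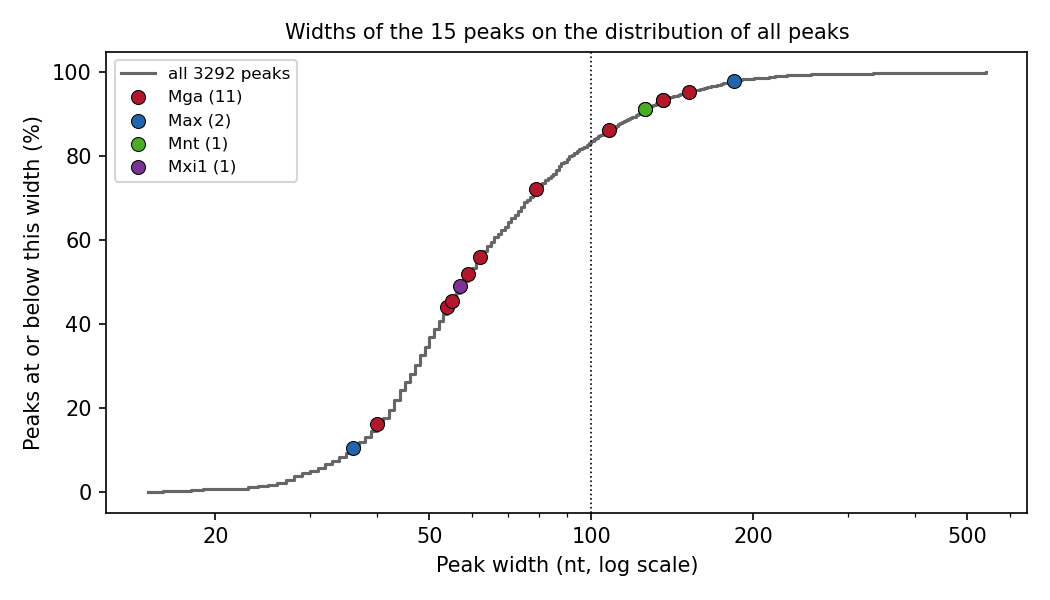
Widths of the 15 peaks, in nt on a log scale, placed on the cumulative distribution of the widths of all 3292 peaks, in percent. Each circle is 1 peak coloured by its gene, and the dotted line marks 100 nt. The 2 peaks of Max, 36 and 184 nt wide, are the outermost, and 5 peaks of Mga lie to the right of the line; those of 136 nt coincide, as do the 126-nt peaks of Mga and Mnt.

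Taking position over all 4 genes, 9 of the 15 peaks lay in the last 10% of a span, against 41.5% of the peaks in 1 nuclear protein-coding gene. Within 2000 nt of the downstream end lay 4 of the 15, namely both peaks of Max, that of Mnt and the last of Mga. These measures differ because the last 10% of Mga is much longer than that of Max or Mnt. The median position was 93.5% with Mga and 96.2% over the 4 peaks of the other genes. Only 1 peak, the first of Mga, lay in the first 10% of a span.

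Peaks carried running numbers up to 30438, so that the listed ones are 10.8% of that number. Within each chromosome and strand the numbers of the listed peaks rose with position in every case. If the unlisted numbers follow the same order, they can be placed between listed ones. From the first to the last peak of Mga the numbers ran over 68 values, of which 11 were listed and 57 were not. Leaving out the end points, 9 of 66 numbers were listed, or 13.6%. The same share had a median of 20.0% over 297 genes with at least 3 peaks and quartiles of 12.5% and 40.0%. Between both peaks of Max 1 number was missing.

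For the genes without a peak the numbers give an upper limit, on the same condition. On the strand of E2f6, 5 unlisted numbers fell between the listed peaks on either side of the gene, a stretch of 8018623 nt. On that of Pcgf6 there were 12 in 1228456 nt, and on that of L3mbtl2 there were 33 in 280358 nt. Around Myc, whose strand the promoter table did not give, there were 21 on the plus and 36 on the minus strand, within 16833341 and 14121641 nt. If unlisted numbers follow the order of the listed ones, no more than these can have belonged to the genes. Where they lay within the stretches is not given. No label or header says what an unlisted number stands for.

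Genes that work with the 8 were read from lists that had been drawn up with earlier results of these data known. Of 9 other PRC1.6 subunits, 2 had a peak. Rnf2, a ubiquitin ligase gene of PRC1, had 1 peak of 90 nt centred 1003 nt from its downstream end. Wdr5, which encodes a protein of several chromatin complexes, had 2 peaks in the upstream part of its span, at 16.8% and 19.9%. Ring1, Rybp, Yaf2, Cbx3, Tfdp1, Hdac1 and Hdac2 had none.

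In the wider MYC network, 1 of 8 other genes had a peak, which was Mycn. Mycl, Mxd1, Mxd3, Mxd4, Mlx, Mlxip and Mlxipl had none. Among 8 other E2F and DP genes, E2f3 had 1 peak of 56 nt at 13.0% of its span and E2f4 had 1 of 121 nt at 47.3%. Neither lay within 2000 nt of a downstream end. Of 18 other PRC1 genes, 5 had peaks: Phc1 had 3, and Pcgf2, Pcgf3, Bcor and Usp7 had 1 each. The peak of Bcor, which encodes a subunit of another noncanonical PRC1 complex, was centred 310 nt from the end of a 123780-nt span.

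Other regulators that silence germline genes had peaks in 3 of 8 cases. Dnmt1, the maintenance DNA methyltransferase gene, had 5 peaks of 63 to 85 nt in width, between 83.5% and 99.5% of its span. Atf7ip and Ehmt2, which act in histone H3 lysine 9 methylation, had 1 each. Setdb1, Dnmt3a, Dnmt3b, Ehmt1 and Uhrf1 had none. Of 17 germline genes known to be repressed in stem cells, such as Ddx4, Dazl, Stag3 and Sycp3, 0 had a peak. Each of these counts reads against the 8.33% of protein-coding genes with a peak. The levels of the transcripts were not measured in the files used here.

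**Figure D3:**
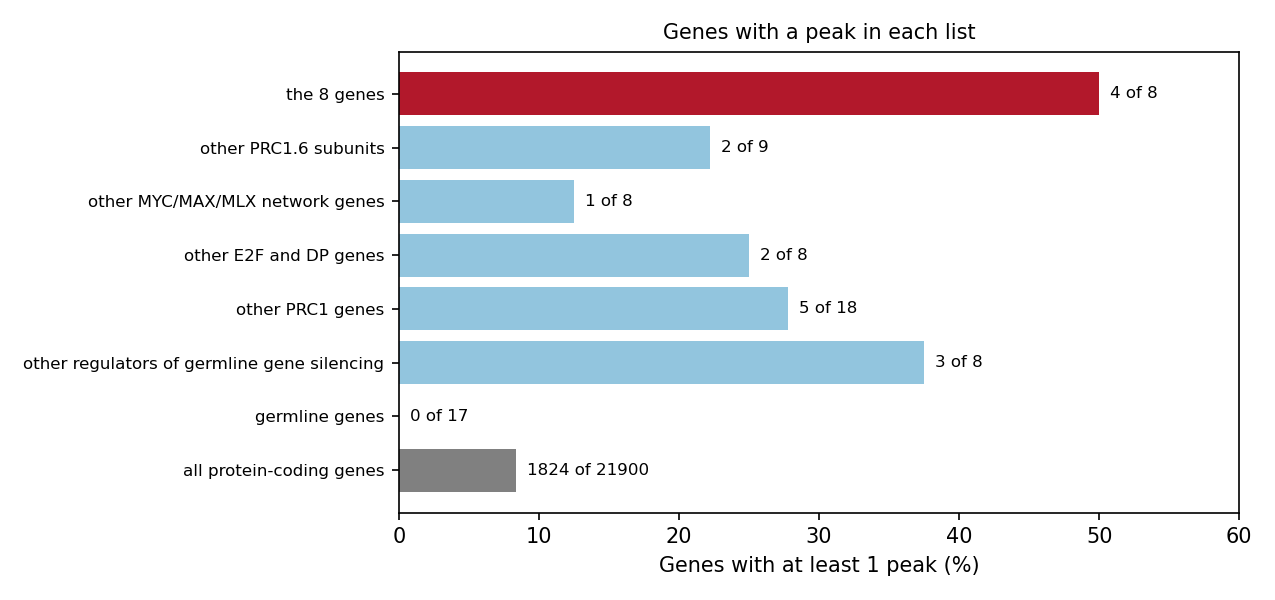
Share of genes with at least 1 peak, in percent, for the 8 genes, for 6 lists of related genes and for all 21900 protein-coding genes, with the number of genes beside each bar. The 8 genes were picked with their peaks known; among the related lists the share runs from 0 of 17 germline genes to 3 of 8 regulators of germline gene silencing.

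The miRNA libraries gave values per replicate for miRNAs known from earlier work to target Myc (the let-7, miR-34 and miR-145 families) and Mnt (miR-210). A share of counts held by AGO2 does not tie a miRNA to any peak. RefSeq sequences (build GRCm38.p6) were matched for 12 of 13 names looked up, all but miR-34c-5p, and 3 seeds occurred among the matched sequences. The sequence of miR-145a-5p was not looked up. They are shown because target pairing starts from the seed. Capitals mark the seed, bases 2 to 8 from the 5′ end.

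let-7g-5p: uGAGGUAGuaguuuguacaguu

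let-7c-5p: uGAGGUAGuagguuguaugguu

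miR-34a-5p: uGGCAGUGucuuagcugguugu

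miR-34b-5p: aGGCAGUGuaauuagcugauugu

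miR-210-3p: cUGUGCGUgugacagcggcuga

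The let-7 pair shares 1 seed and the miR-34 pair another, so within each family the same sites could be recognised. The 9 members of the let-7 and miR-98 family together held 0.0189% of the replicate 1 counts, with a 95% Wilson interval of 0.0182 to 0.0197. In replicate 2 they held 0.0155%, with an interval of 0.0150 to 0.0160, which gave a mean of 0.0172% ± 0.0024 (SD, n = 2). let-7g-5p had 551 and 957 counts and let-7c-5p had 558 and 702, so that their order changed between the replicates. The 3 members of the miR-34 family held 0.217% and 0.232% of the counts, a mean of 0.224% ± 0.010 (SD, n = 2). Nearly all of it was miR-34a-5p, with 0.208% and 0.223%, while miR-34c-5p stood at 0.00658% and 0.00622%. The miR-34 family held a larger share than the let-7 family in both libraries. Each SD covers only the spread of 1 family between the 2 libraries. Differences in recovery between miRNA sequences were not measured.

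For miR-145a-5p the shares were 0.146% in replicate 1 and 0.159% in replicate 2. For miR-210-3p they were 0.250% and 0.236%, a mean of 0.243% ± 0.0099 (SD, n = 2), the highest of the single miRNAs looked up for the 8 genes. The shares of miR-210-3p and miR-34a-5p kept their order in both replicates. The tables summed to 12562727 counts for replicate 1 and 22908172 for replicate 2. PCR reads are not independent molecules, so the intervals cover counting error only.

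**Figure D4:**
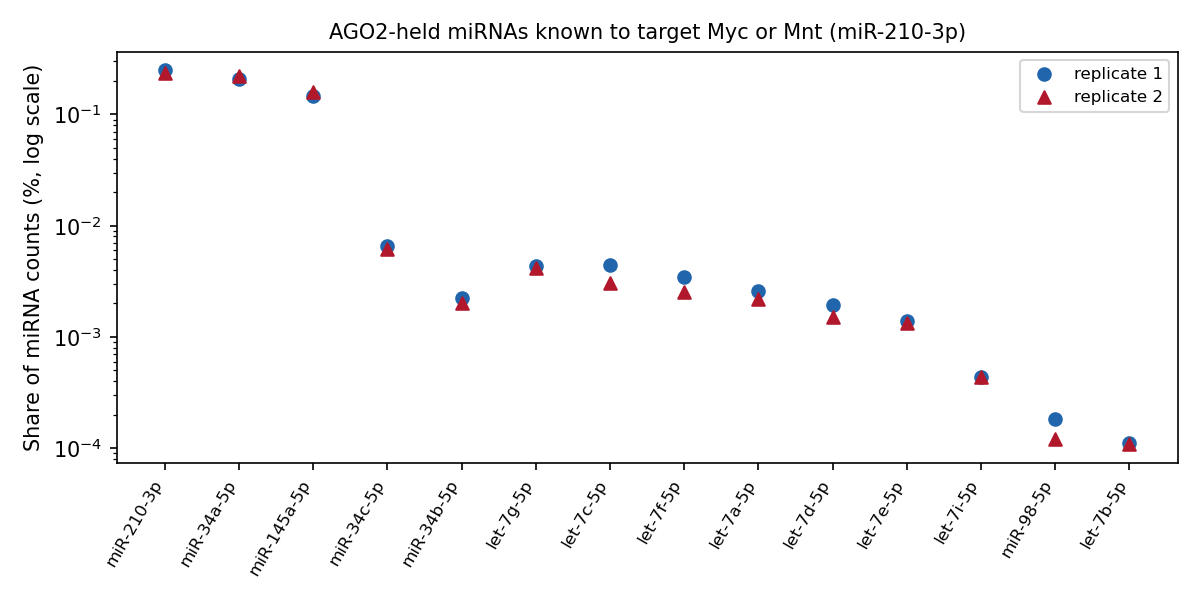
Share of miRNA counts held by AGO2, in percent on a log scale, for 14 miRNAs known to target Myc or, for miR-210-3p, Mnt. Circles are replicate 1 and triangles replicate 2. miR-210-3p, miR-34a-5p and miR-145a-5p lie between 0.146% and 0.250%, and every let-7 member lies below 0.005%.

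As a check of the labelled cell type, 12 mature miRNAs of the miR-290/miR-295 cluster, which marks mouse embryonic stem cells, held 39.1% and 38.5% of the counts in the miRNA libraries. Of 8 genes that mark these cells, 6 had a peak, namely Nanog, Sox2, Esrrb, Klf4, Zfp42 and Lin28a, while Pou5f1 and Sall4 had none. Markers of endoderm, mesoderm, neural cells and fibroblasts (Gata6, Sox17, T, Pax6, Col1a1 and Col1a2) had a peak in 0 of 6 cases. With a peak in only 8.33% of all protein-coding genes, 6 genes would often hold none. A gene without a listed peak can also still be expressed, so that these counts do not measure other cells.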

How the data were processed

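The authors deposited 1 peak list for the whole series, with a score of 0 for every peak, and raw counts per mature miRNA for each of the 2 miRNA libraries. Per the submitters' processing notes, the tools included STAR 2.5.2a, Bowtie2 2.4.2, cutadapt 2.10, UMI-tools, deepTools 3.1.3 and DESeq2 1.36.0 and the build was mm10, with no role given for any tool. How peaks were called, at which threshold, on pooled or single libraries and with or without the input is not given in the sources; another threshold could change every number of peaks.

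Peaks were assigned by midpoint to RefSeq gene spans (GRCm38.p6), with coordinates counted from 1. Position was measured in the direction of the peak strand, and gaps from edge to edge. The rest of the list was summarised from 3070 peaks in exactly 1 nuclear protein-coding gene. Exons and genome sequence were not used here. With 1 list and 1 group of miRNA libraries, no test was run. The genes and lists were chosen with earlier results of these data known. Names were given to the 8 genes, listed genes with a peak and genes overlapping a member. They also went to the 3 genes within 1 peak of Mga with the closest mean position. Others named were picked once their values were known. These had no peak, held a nearest peak, had 5 wide peaks or came next in mean position. The miRNA sums used 95% Wilson intervals; 3 counts are 2.39e-05% and 1.31e-05% of the totals. On simulated data, 100% of 500 peaks placed inside known gene spans were assigned to those genes. This checks the code only, and an added assignment to an overlapping gene was not counted as an error. Python 3.11.15, numpy 2.4.6, pandas 2.3.3, scipy 1.17.1 and matplotlib 3.10.9 were used.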

Additional observations from a re-analysis of the deposited data

How the results depend on the processing

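The number of peaks in each of the 8 genes, their total of 15 and the number of genes with a peak stayed within 1.5 times of the values given, whether peaks were assigned by any overlap, only when wholly inside the span, with a minimum width of 30 nt, joined over gaps of up to 50 or 200 nt, with spans extended by 1000 nt, or, chosen after seeing the data, by strand. Extension raised the percent of protein-coding genes with a peak to 8.81%. Against 4 peaks within 2000 nt of the downstream end, a window of 1000 nt held 2 and one of 5000 nt held 6. Without Mga, 2 peaks reached 100 nt in width. With miR-290a-5p left out of the total, which makes every share larger, the let-7 and miR-98 family stood at 0.0226% and the miR-34 family at 0.294%. Leaving out a replicate gave 0.0155% to 0.0189% for the let-7 and miR-98 family and 0.217% to 0.232% for the miR-34 family. A stricter score could not be tried because all scores are 0. No paired analysis was possible because only the miRNA group had values per library.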
